A study of Danio rerio with 8 samples.

Results

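The comparison set whole MZspg zebrafish embryos against wild-type (WT) embryos at 30% epiboly, 4.7 hours after fertilisation, on 4 of the 8 arrays of the series. Members were taken by the array titles: 2 MZspg and 2 WT arrays, each made from the total RNA of a pool of 120 embryos. MZspg embryos carried the m793 allele of spg, the locus of pou5f3, and lacked its maternal and its zygotic function. The WT embryos were offspring of AB fish crossed with TÜB fish, and the labels give no background for the mutants beyond the allele, so strain and genotype cannot be told apart. The age of both genotypes was counted either from fertilisation in vitro or, where fish had mated naturally, from the 4-cell stage (1 hour). The other 4 arrays held both genotypes at 60% epiboly (7 hours), and they enter below through the shared estimate of the spread and as a separate pair of groups.

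Pou5f3 is the zebrafish POU-domain factor related to mammalian Oct4. It is supplied by the egg, binds DNA with SoxB1 factors and Nanog, and is known for the first activation of the embryo's own genes. At 30% epiboly the blastoderm has begun to spread over the yolk as an outer enveloping layer, a deep cell layer and a yolk syncytial layer, and gastrulation has not yet started. Since whole embryos were used, fewer cells of a type and less RNA per cell cannot be told apart in any value that follows.

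Values are deposited signal intensities per probe set, in which the median of all values was 67.1 and the highest 7819. They were tested as log2(signal + 9) with limma, which understates the change of dim genes. A log2 fold change is MZspg minus WT, and a probe set is called where the p adjusted over all 7375 tested probe sets lay under 0.05. Each pair of signals gives replicate 1 and then replicate 2. An empty cell in the deposited table was set to 8.35 for the fit.

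The targeted gene was measured first. The signal of pou5f3 was 1292 and 1327 on the MZspg arrays, against 2849.9 and 3166 on the WT arrays (log2 fold change -1.19, SE 0.228, adjusted p = 0.0223). Both MZspg arrays lay under both WT arrays, with a transcript still plainly measured in the mutant. The sources used here do not place the probe set against the m793 lesion, so the check of the labels is limited. The call was lost when any 1 of the 4 arrays was left out (adjusted p from 0.0976 to 0.282).

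Replicate arrays of a genotype, labelled with the same stage, differed along the change between stages. Replicates correlated at 0.935 in MZspg and at 0.951 in WT across the tested probe sets, against 0.906 to 0.922 between genotypes. The difference of MZspg replicate 1 from replicate 2 went with the change that WT embryos showed between 30% and 60% epiboly, with r = 0.553 across 7375 probe sets, which share the arrays and are no replicates. Of 125 probe sets over 4-fold higher at 60% epiboly in WT, 102 (81.6%) were higher on MZspg replicate 1 than on replicate 2, while of 87 over 4-fold lower at 60% only 4 (4.60%) were, against 52.8% of all tested probe sets. In WT, set against the change that MZspg embryos showed between the stages, the arrays were the other way round. The probe sets chosen differ between the genotypes, so the sizes of these differences are not compared. Of 335 probe sets over 4-fold higher at 60% epiboly in MZspg, 91 (27.2%) were higher on WT replicate 1 than on WT replicate 2, against 55.4% of all (r = -0.181). Of 294 over 4-fold lower at 60% in MZspg, 185 (62.9%) were higher on WT replicate 1, which is closer to the share of all. By this measure MZspg replicate 1 and WT replicate 2 lay toward the values of the later stage, and MZspg replicate 2 and WT replicate 1 toward those of the earlier one. What made the replicates differ, and its part in each result, was not tested, and calls are given with each array left out.

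**Figure D1:**
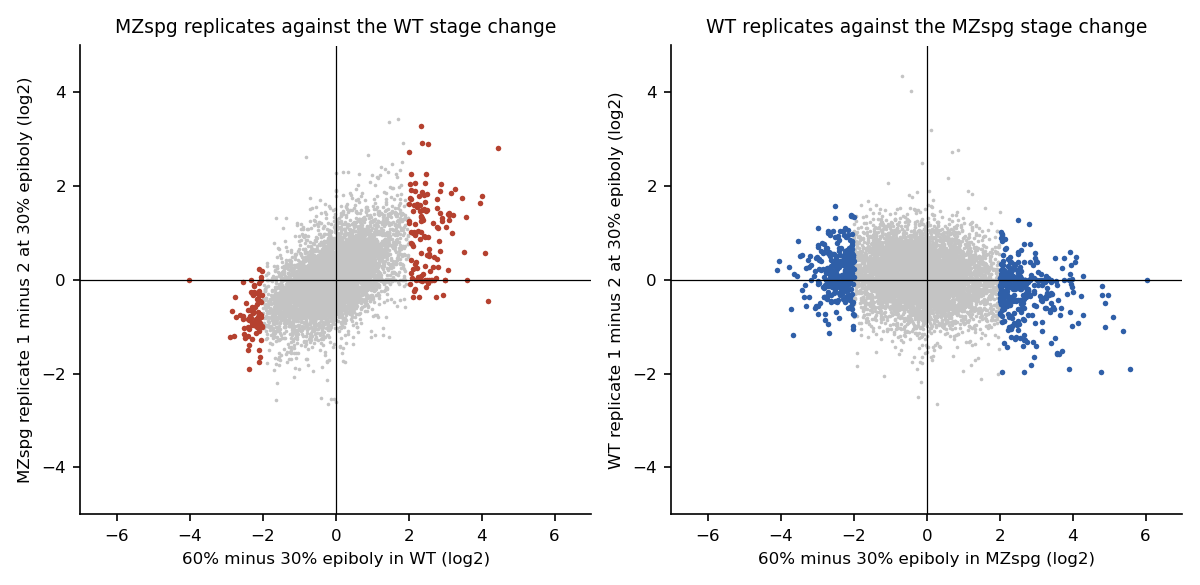
Each point is 1 of 7375 tested probe sets, as log2(signal + 9). The left panel sets the difference between the MZspg replicates of 30% epiboly (vertical) against the change in WT between 30% and 60% epiboly (horizontal), and the right panel sets the difference between the WT replicates against the change in MZspg, with probe sets over 4-fold changed in colour. In the left panel the cloud rises (r = 0.553), while in the right panel it falls slightly (r = -0.181).

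Of the 7375 probe sets, 124 (1.68%) were called: 94 (1.27%) were lower and 30 (0.407%) higher in MZspg embryos. All 124 had groups that did not overlap, as did 38.5% of all tested probe sets. An unadjusted p under 0.05 was reached by 690 (9.36%), of which 390 (5.29%) were lower and 300 (4.07%) higher in MZspg. The median log2 fold change was -2.28 over the probe sets that fell and 2.00 over those that rose, against 0.05 over all tested. Of those that fell, 23 did so by more than 8-fold and 58 by more than 4-fold, while 2 of those that rose passed 8-fold and 15 passed 4-fold. The probe sets that fell had a median signal of 25.5 in MZspg and 232 in WT, and those that rose 189.6 in MZspg and 29.6 in WT. In 56 of the 94 the MZspg mean lay below 41.03, the level of the filter on dim probe sets. Most of the lower calls were thus of transcripts near the dim end of the array in MZspg. Their WT median of 232 stood above the 136 of all tested probe sets. The filter asked for 41.03 on at least 2 of the 8 arrays. A probe set dim on both arrays of 1 genotype was therefore tested only through its other arrays. For calls in either direction, this pattern is thus partly set by the filter and the call. The higher calls shared this limit: in 16 of the 30 the WT mean lay below 41.03. Over all 7375 tested probe sets the MZspg mean lay below that level in 1063 and the WT mean in 1138.

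The calls passed to different degrees when 1 array was left out. Counted by the brightest probe set of each gene, 60 of 5219 genes (1.15%) fell and 21 (0.402%) rose. The share called in either direction, 1.55%, is the background for each list count of calls below. The lists were chosen with earlier results of these data known and some genes stand in more than 1 list. A list share above the background is therefore a description only. For counts of values above or below 0, the background is 4101 above and 3272 below over all 7375 tested probe sets. Of the 60, 34 passed when MZspg replicate 1 was left out, 16 when MZspg replicate 2 was, 14 when WT replicate 1 was and 11 when WT replicate 2 was. Of the 21 that rose, the numbers in the same order were 6, 6, 2 and 0. Over probe sets, 17 of the 124 passed whichever of the 4 arrays was left out. Those with a gene symbol were sult6b1, klf17, si:ch211-152c2.3, snai2, arg2, mych and sox11a, which all fell. The others, which include the only probe set of them that rose, have no single gene symbol. With no filter on dim probe sets, where more are tested, 31 probe sets passed, and with only the 4 arrays of this stage in the fit 67 did. With 1 array left out, the group that keeps a single array is assumed to vary like the others. Fewer arrays also widen the error, so a lost call need not mean a changed value. In these fits the log2 fold change of glipr2l ran from 1.66 to 1.68, while that of krt97 ran from -4.18 to -1.52. An exact permutation test of 2 arrays against 2 cannot give a two-sided p below 0.333, so for a single gene the p comes from the model alone.

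**Figure D2:**
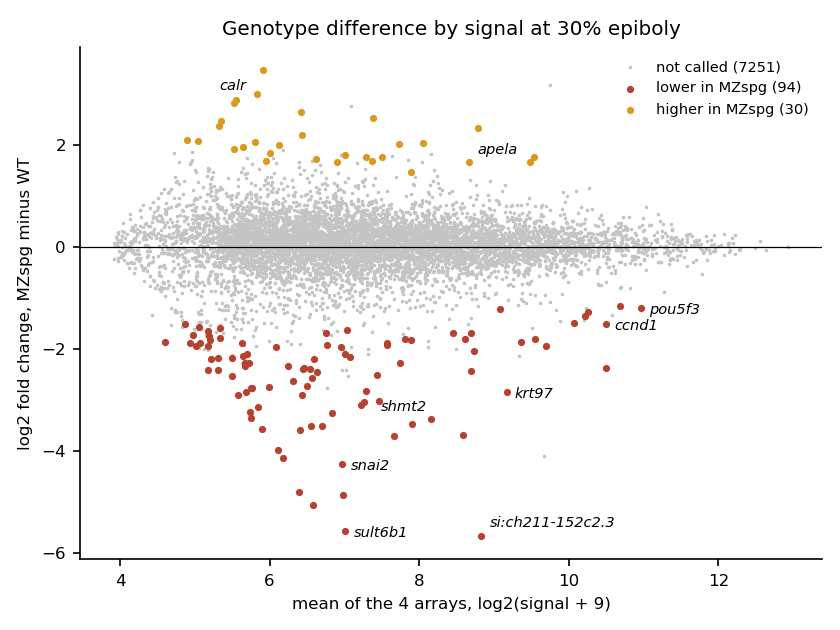
Log2 fold change of MZspg minus WT at 30% epiboly (vertical) against the mean log2(signal + 9) of the 4 arrays (horizontal) for 7375 probe sets. The 94 that were called lower reach further from 0 than the 30 called higher, and pou5f3 and ccnd1 lie among the brightest of them.

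Several genes of transcription factors fell. The Krüppel-like factor gene klf17, of the hatching gland and early blood lineages, had 22.3 and an empty cell in MZspg, against 659.5 and 684 in WT (log2 fold change -4.87, adjusted p = 5e-05). The other Krüppel-like factor called, klf2b, had 11.6 and 11.8 in MZspg and 118 and 149.5 in WT (-2.77, adjusted p = 0.0129). Both genes were near the dim end of the array in the mutant and plainly measured in WT. Of the 11 tested Krüppel-like and Sp genes these 2 were called lower and 0 higher, where 1.55% of all genes were called. The median of the 11 was 0.15. An unadjusted limma p under 0.05 was reached by 4 of the 11, all lower in MZspg. The gene klf2a had 132 and 276 in MZspg, against 194 and 133 in WT, and the groups overlapped.

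The zinc-finger repressor gene snai2, known from epithelial-mesenchymal transitions and the neural crest, showed the same steep pattern. Its signal was 22.2 and 17.2 in MZspg and 611 and 477 in WT (-4.26, adjusted p = 6.13e-05). The related snai1a had 379 and 393 in MZspg and 224 and 417 in WT, with overlapping groups (0.33, adjusted p = 0.951). For the Myc family the split was alike. The bHLH gene mych had 22.5 and 21.2 in MZspg and 311 and 379.7 in WT (-3.51, adjusted p = 0.000439), whereas mycb had 42 and 62.4 in MZspg and 25.4 and 25.8 in WT and was not called (0.80, adjusted p = 0.487). No test of the difference between these relatives was made.

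Among the Sox genes, the SoxC gene sox11a, of neural progenitors, fell. It had 78.9 and 49.3 in MZspg, against 888 and 696 in WT (-3.47, adjusted p = 0.000448), and a further probe set was called as well, with 37.6 and 46.4 in MZspg and 363 and 509.9 in WT. Another, dim probe set of sox11a had 14.98 and 10.4 in MZspg and 55.7 and 51.4 in WT and was not called (-1.54, adjusted p = 0.121). Its duplicate sox11b had 665 and 832 in MZspg and 804 and 876 in WT, where the lower WT array lay within the MZspg range (-0.17, adjusted p = 0.994). Of the 7 tested Sox genes, sox11a was called and the median was -0.85, with 6 below 0. The SoxB1 genes, partners of Pou5f3 on DNA, were among the 6. The signals of sox19b were 42.6 and 171 in MZspg and 147 and 249.97 in WT, those of sox19a 344 and 660.4 in MZspg and 774 and 1053 in WT, and those of sox3 783 and 422 in MZspg and 677 and 983 in WT. The groups of sox19a did not overlap, those of the other two did, and the adjusted p was 0.65, 0.459 and 0.774. The dim sox2 had empty cells on both MZspg arrays, against 10 and 42.7 in WT.

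Forkhead genes gave 2 calls among 17 tested, both lower, with a median of -0.02, where 1.55% of all genes were called. The gene foxd3, of the neural crest and dorsal mesoderm, had 37.9 and 17.2 in MZspg and 188 and 267 in WT (-2.73, adjusted p = 0.00513). The neural plate gene foxb1a had 7.53 and 5.84 in MZspg and 56.5 and 97.6 in WT (-2.42, adjusted p = 0.00862). Both were several-fold lower on each mutant array. A forkhead gene of the non-neural ectoderm, foxi1, had 12.6 and 39.8 in MZspg and 76.8 and 65.8 in WT and did not pass (-1.30, adjusted p = 0.207).

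The list of pluripotency-type factors, which holds pou5f3 itself, counted 5 lower and 0 higher among 21 tested genes, where 1.55% of all genes were called. The 5 were klf17, mych, klf2b, foxd3 and pou5f3. The median of the list was -0.89, against 0.04 over all genes, and 17 of its 21 values lay below 0. The homeobox gene nanog, named after its values were seen, acts with Pou5f3 and SoxB1 factors in early gene activation. It had 1335 and 2429 in MZspg and 3614 and 3103 in WT (-0.89, adjusted p = 0.376). Both mutant arrays lay under both WT arrays, but the 2 mutant arrays differed from each other by more than the WT arrays did. The Nodal co-receptor gene tdgf1 had 819.9 and 751 in MZspg and 2499 and 1314 in WT and was not called (-1.20, adjusted p = 0.15).

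Calls of these factors without 1 array were as follows. Those of klf17, snai2, mych and sox11a passed without any 1 of the 4 arrays (highest adjusted p = 0.00484, 0.00539, 0.0233 and 0.0213). That of foxd3 was lost without MZspg replicate 2 or WT replicate 2 (adjusted p = 0.0518 and 0.116). That of foxb1a was lost without the same arrays (0.0763 and 0.161), and that of klf2b without any 1 of the 4 (from 0.0538 to 0.205).

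**Figure D3:**
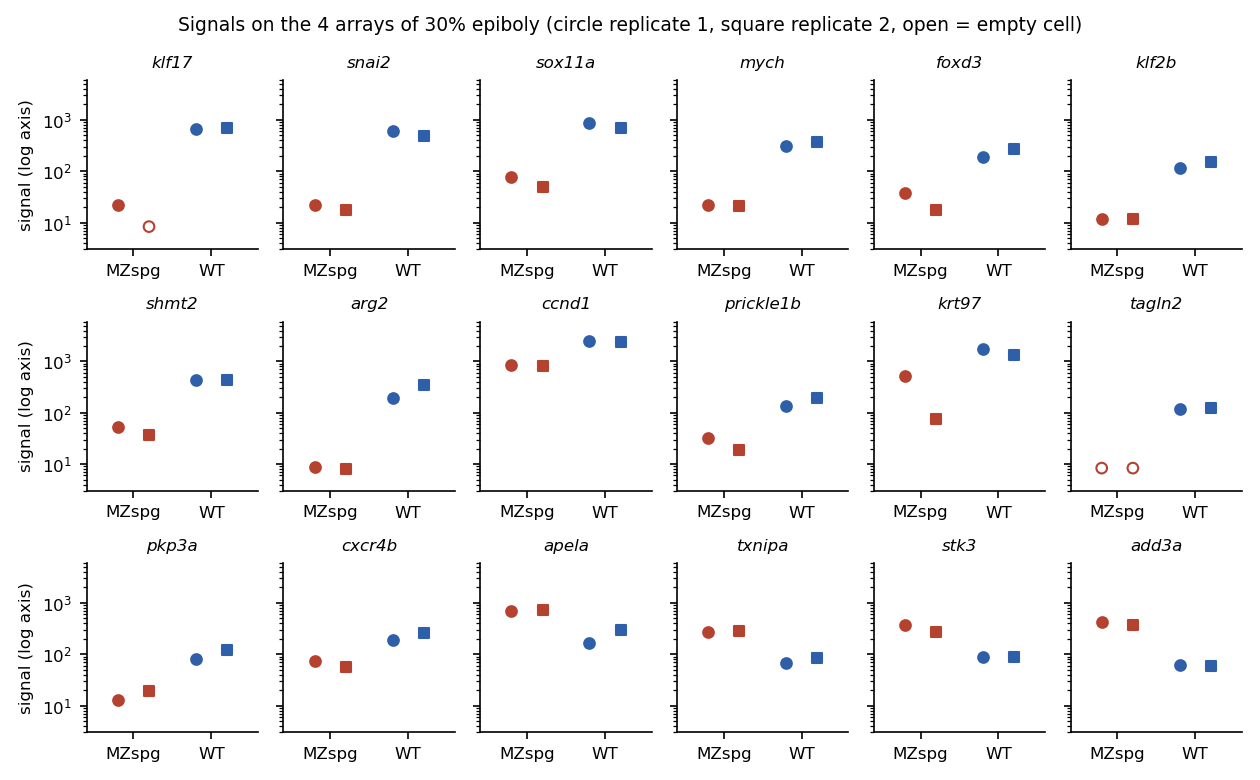
Signal of 18 genes on each array of 30% epiboly (vertical, log axis), with MZspg on the left of each panel and WT on the right; circles are replicate 1, squares replicate 2 and open circles empty cells drawn at 8.35. In every panel the 2 MZspg arrays lie apart from the 2 WT arrays, and krt97 shows the widest gap between MZspg replicates, 530.3 and 76.1.

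Ventral and epidermal patterning genes gave 1 call in the 3 lists that follow, where 1.55% of all genes were called. Bmp ligands act through type I and II receptors to set ventral fates and to separate epidermis from neural plate, and secreted inhibitors oppose them. Of 10 tested ligand and receptor genes 0 were called, with a median of -0.31 and 8 values below 0, and of 10 inhibitor and feedback genes 0 were called, with the same rounded median. The ligand gene bmp2b had 213 and 318 in MZspg and 385 and 291 in WT, and the inhibitor gene chrd had 273 and 162 in MZspg and 337 and 316 in WT. Neither passed (-0.35 and -0.61, adjusted p = 0.911 and 0.808). The gene bmp4 had empty cells on both MZspg arrays, against 23.8 and 19.7 in WT, all near the dim end.

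Of 16 tested ventral and non-neural ectoderm factors 1 was called, the homeobox gene msx3, which rose. It had 75.8 and 44.3 in MZspg and 8.04 and 6.21 in WT (2.06, adjusted p = 0.0199, lost without any 1 of the 4 arrays, the highest 0.226). The list's median was -0.50. Its ventral repressor gene vox had 1633 and 549 in MZspg and 2585 and 2252 in WT (-1.34, adjusted p = 0.144). Only the second MZspg array stood far below the WT arrays. For the AP-2 factor gene tfap2a, of non-neural ectoderm, the signals were 187 and 153 in MZspg and 353 and 422 in WT (-1.15, adjusted p = 0.153). The GATA gene gata2a had 66.4 and 74 in MZspg and 163 and 146 in WT (-1.05, adjusted p = 0.317). All 6 tested GATA and AP-2 genes had values below 0 with a median of -0.73, and 0 were called.

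Several lists of mesendoderm genes differed between the MZspg replicates. Nodal signals induce mesoderm and endoderm at the margin, and Fgf and Wnt signals act with them. Of 12 tested Nodal pathway genes 0 were called (median -0.08), of 16 dorsal organizer genes 0 (0.05), of 18 mesoderm and somite genes 0 (0.06), of 11 Fgf pathway genes 0 (-0.12) and of 6 T-box genes 0 (0.16). Of 10 endoderm genes 1 fell, the chemokine receptor gene cxcr4b described below. In most of these lists MZspg replicate 1 stood above replicate 2: for 15 of the 16 organizer genes (median difference 0.86 on the log2 scale), for all 10 endoderm genes (0.81) and for 9 of the 11 Fgf genes (1.08), but for 7 of the 12 Nodal pathway genes (0.087).

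The notochord T-box gene tbxta is 1 of 4 examples picked for this pattern. It had 211 and 47.6 in MZspg and 59.3 and 162 in WT, so that each genotype held a high and a low array and the log2 fold change was 0.04. The endoderm gene sox32 had 578 and 238 in MZspg and 208 and 306 in WT, and the organizer gene gsc had 763 and 371 in MZspg and 269 and 515 in WT. The somite oscillator gene her7 had 44.5 and an empty cell in MZspg and 6.21 and 57.2 in WT. In all 4 genes the same pair of arrays was the higher one of its genotype: MZspg replicate 1 and WT replicate 2. The lowest adjusted p of the 4 was 0.869, so no genotype difference could be read beyond the replicate spread.

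The closest to a call in these pathways were the Ets gene etv4, a target of Fgf signalling, and the Smad co-repressor gene tgif1. The first had 293 and 132 in MZspg and 605 and 489 in WT (-1.42, adjusted p = 0.0904). The second had 567 and 360.3 in MZspg and 900.2 and 957 in WT (-1.02, adjusted p = 0.102). Both were lower on each mutant array and neither passed.

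Genes of cell movement and polarity changed in both directions. Of 25 tested genes of planar polarity and gastrulation movement 2 fell and 1 rose, with a median of 0.02. Among all genes 1.55% were called. The planar polarity gene prickle1b had 32.1 and 18.9 in MZspg and 138 and 192 in WT (-2.35, adjusted p = 0.00788). The receptor gene cxcr4b, which guides migrating germ cells in the zebrafish, had 73.5 and 57.4 in MZspg and 186 and 264 in WT (-1.64, adjusted p = 0.0472). The gene that rose was apela, which encodes a peptide ligand of the apelin receptors needed for mesendoderm cells to move. Its signal was 701 and 729.5 in MZspg, against 166 and 291 in WT (1.66, adjusted p = 0.0292), with mutant replicates close together. The receptor gene aplnra had 710.4 and 462 in MZspg and 367 and 358 in WT and was not called (0.65, adjusted p = 0.588).

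In the Wnt list fzd9b, a Frizzled receptor gene, was the 1 call among 23 (median 0.03). It had 8.81 and 13.2 in MZspg and 53.9 and 63.1 in WT (-1.76, adjusted p = 0.0255), and its other probe set had the same sign without passing (-1.53, adjusted p = 0.0596). The laminin gene lamb1a, of the basement membrane, had 23.8 and an empty cell in MZspg and 73.5 and 124 in WT (-2.13, adjusted p = 0.0271), the 1 call among 7 tested matrix and integrin genes.

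The calls of apela, cxcr4b and fzd9b were lost without any 1 of the 4 arrays (highest adjusted p = 0.282, 0.446 and 0.247). Those of prickle1b and lamb1a passed without MZspg replicate 1 and were lost without any 1 of the others (highest 0.138 and 0.357).

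The list of enveloping layer and epidermis genes gave the largest number of calls of any cell type list. The enveloping layer is the outer epithelium that covers the blastoderm. The lists differ in length. Of 27 tested genes 6 fell (22.2%), where 1.15% of all genes did, and 0 rose. As the list was chosen with earlier results of these data known, this share is a description only. Of the 6, krt5 and krt97 are counted again among the keratins, and anxa1a and s100v2 among the annexins and S100 genes. The median was -0.58, and 19 values lay below 0. Of the 6, the actin-binding transgelin gene tagln2 had empty cells on both MZspg arrays, against 117 and 127 in WT, which makes it at least 4.94-fold lower (adjusted p = 0.00419). The bound is set against 24.6, the 95th percentile of signals whose replicate cell was empty. The gene pkp3a, for a plakophilin of the desmosome, had 13.1 and 19.6 in MZspg and 80.1 and 121 in WT (-2.10, adjusted p = 0.0193). The calcium-binding S100 gene s100v2 had 24 and 26.9 in MZspg and 157 and 98.7 in WT (-1.96, adjusted p = 0.0223). In each of these 3 both mutant arrays were low.

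For keratins and annexin the mutant arrays were unequal. The keratin genes, which encode intermediate filaments of epithelia, had their highest MZspg signal on replicate 1. The gene krt97 had 530.3 and 76.1 in MZspg and 1747 and 1348 in WT (-2.85, adjusted p = 0.0388), and krt5 had 109.6 and 17.4 in MZspg and 699.7 and 755 in WT (-3.72, adjusted p = 0.00562). The dimmer krt99 had 8.04 and an empty cell in MZspg and 58 and 118 in WT (-2.43, adjusted p = 0.0158). For krt97 and krt5 both mutant arrays were below both WT arrays, with several-fold between the mutant arrays themselves.

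The brightest keratins did not pass. The gene krt4 had 1176 and 428 in MZspg and 1639 and 2284 in WT (-1.43, adjusted p = 0.115), krt8 2234 and 825 in MZspg and 1949 and 2922 in WT (-0.81, adjusted p = 0.532) and krt18a.1 2629 and 1479 in MZspg and 1725 and 2096 in WT (0.05, adjusted p = 0.996). In krt8 and krt18a.1 the groups overlapped. In all, 3 of 8 genes matched as keratins fell, where 1.15% of all genes did, and 0 rose. Their median was -1.31, with krtcap2, which encodes no keratin, among the 8. The median difference between MZspg replicate 1 and replicate 2 was 1.43 over these 8 and 0.83 over the enveloping layer and epidermis list. The annexin gene anxa1a had 103 and 21.7 in MZspg and 413 and 405 in WT (-2.83, adjusted p = 0.0208). Of 10 tested annexin and S100 genes anxa1a and s100v2 fell and 0 rose, while 6 had values above 0 and the median was 0.38. Not every gene of the enveloping layer and epidermis list was low. The claudin gene cldnb had 269.6 and 109 in MZspg and 59.9 and 82.1 in WT and was not called (1.19, adjusted p = 0.371). Of 16 tight junction genes 0 were called (median 0.05).

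Without MZspg replicate 2, the array with the lowest keratin signals, the call of krt5 passed (adjusted p = 0.00804) and those of krt97 and anxa1a were lost (0.0504 and 0.0995). The calls of krt5 and tagln2 were lost without WT replicate 1 (0.088 and 0.0575) or WT replicate 2 (0.117 and 0.0838). Those of krt97 and anxa1a were also lost without either WT array (highest 0.318 and 0.234), and those of pkp3a, s100v2 and krt99 without any 1 of the 4 (highest 0.249, 0.231 and 0.238).

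Other cell types were also listed. Of 16 tested yolk syncytial layer genes 0 were called (median 0.08). The cathepsin gene ctsba had the largest value, with 2985 and 2199 in MZspg and 1289 and 54.8 in WT (3.16, adjusted p = 0.22), which rests on the low second WT array. Of 31 oocyte and maternal genes pou5f3 alone was called (median 0.09), and of 12 germ plasm genes cxcr4b alone (median 0.00). The germ cell genes ddx4, an RNA helicase gene, and nanos3, a translational repressor gene, had 306 and 352 and 180.4 and 202 in MZspg, against 296 and 451 and 190.4 and 268 in WT. The 2 groups overlapped in both genes. Of 22 genes of p53, apoptosis and stress 0 were called (median 0.04), and of 23 neural plate genes sox11a and foxb1a fell (median -0.10). Of 23 neuron, muscle, blood and liver markers on the array 6 passed the filter on dim values, and 1, the stathmin gene stmn2a, rose. It had 285 and 147 in MZspg and 39.8 and 15.3 in WT (2.64, adjusted p = 0.014). At 60% epiboly its signals were 430 and 254 in MZspg and 33.8 and 43.1 in WT. The count in this list is thus partly set by the filter, which stmn2a could not have met on its WT arrays alone. Its call was lost without MZspg replicate 1, WT replicate 1 or WT replicate 2 (highest 0.228).

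**Figure D4:**
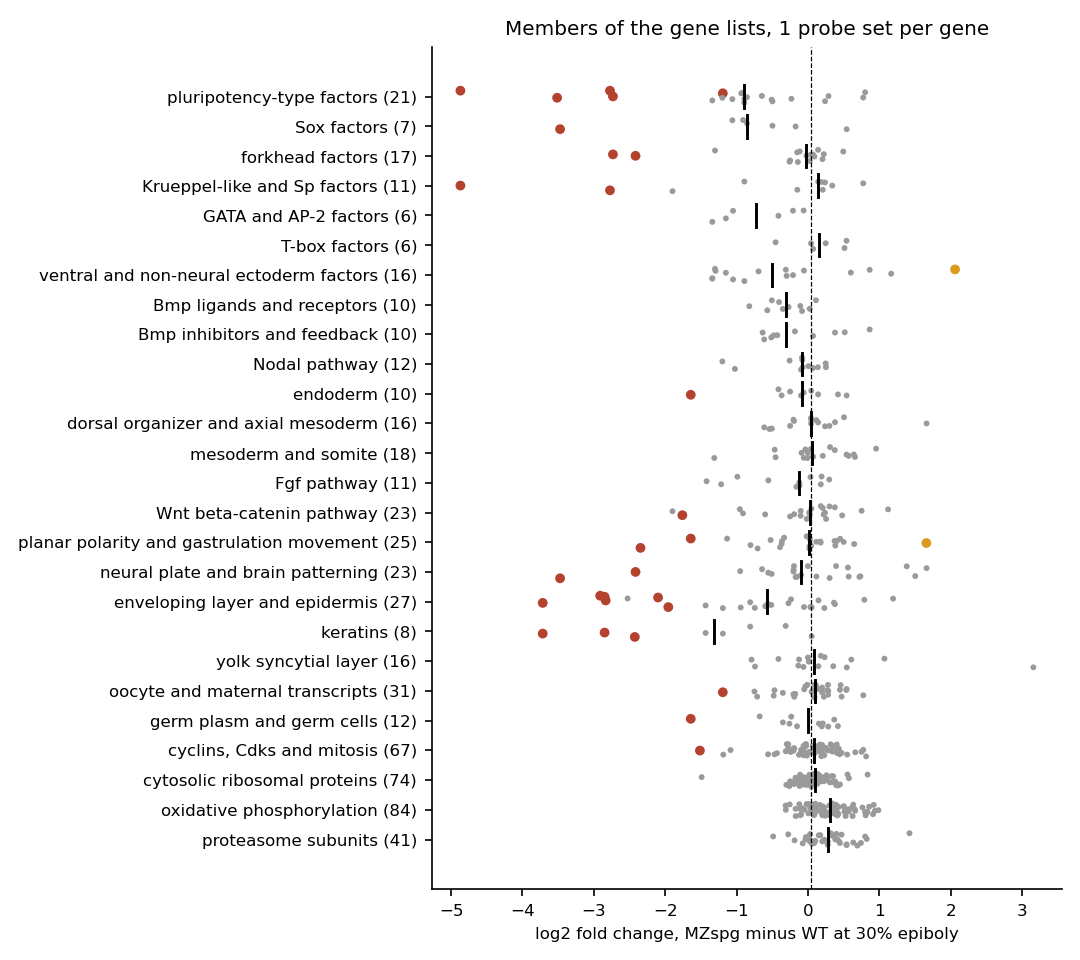
Log2 fold change of MZspg minus WT at 30% epiboly (horizontal) for the tested members of 26 gene lists (number tested in parentheses), with called members in red (lower) or amber (higher), others in grey, the median of each list as a black bar and the median of all genes as a dashed line. The medians of the keratins (-1.31), the pluripotency-type factors (-0.89) and the Sox factors (-0.85) lie furthest to the left.

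Some genes of metabolic enzymes fell. Of 38 tested genes of glycolysis, amino acid and sulfur metabolism 3 fell and 0 rose, with a median of -0.02, where 1.55% of all genes were called. They were sult6b1, arg2 and shmt2. The mitochondrial serine hydroxymethyltransferase gene shmt2, of one-carbon metabolism, had 53.7 and 36.6 in MZspg and 436 and 434 in WT (-3.05, adjusted p = 0.0066). The sulfotransferase gene sult6b1 had 11.8 and 7.83 in MZspg and 933 and 825 in WT (-5.56, adjusted p = 3.56e-05), and the mitochondrial arginase gene arg2 had 8.83 and 8.01 in MZspg and 198 and 354 in WT (-3.97, adjusted p = 0.000242). For sult6b1 and arg2 the mutant signals were among the dimmest of the arrays.

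Outside that list, 3 further enzyme genes were grouped after their values were seen. The glycerol-3-phosphate dehydrogenase gene gpd1b had 26.8 and 18.9 in MZspg and 288 and 182 in WT (-2.92, adjusted p = 0.00795). The glycogen phosphorylase gene pygmb had 49 and 17 in MZspg and 287 and 172 in WT (-2.57, adjusted p = 0.0109), and a second probe set was called in the same direction (-2.29, adjusted p = 0.0394). The steroid dehydrogenase gene hsd3b2, named after its values were seen, had 31.4 and 41.1 in MZspg and 208 and 189 in WT (-2.20, adjusted p = 0.027). In these 3 every mutant value lay several-fold under every WT value. The urea transporter gene slc14a2 fell as the 1 call among 65 solute carriers (median 0.07), with 4.07 and 3.22 in MZspg and 24.4 and 55.3 in WT (-1.88, adjusted p = 0.0427).

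Subunits of the Na,K-ATPase, the sodium pump of the cell membrane, were called in opposite directions. Of 5 tested 1 fell and 1 rose, where 1.55% of all genes were called. The beta subunit gene atp1b1a fell, with 147 and 41.8 in MZspg and 906 and 923 in WT (-3.37, adjusted p = 0.00331), and a second probe set fell too (-2.38, adjusted p = 0.0482). The alpha subunit gene atp1a1b rose, with 70 and 38.6 in MZspg and 5.57 and 5.15 in WT (2.09, adjusted p = 0.0139). The other 3 tested subunits were not called. For example, the bright atp1b3b had 1284 and 1769 in MZspg and 1116 and 1132 in WT (0.42, adjusted p = 0.843).

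Of the enzymes and pumps, sult6b1 and arg2 passed without any 1 array (highest adjusted p = 0.00452 and 0.011). The calls of shmt2, gpd1b and pygmb passed without MZspg replicate 1 and were lost without any 1 of the others (highest 0.117, 0.134 and 0.152). That of atp1b1a was lost without either WT array (0.0644 and 0.0838), that of atp1a1b passed only without MZspg replicate 2 (highest 0.166), and those of hsd3b2 and slc14a2 were lost without any 1 of the 4 (highest 0.23 and 0.452).

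Genes of signalling and regulation also fell. The G-protein signalling regulator gene rgs12b had 33.1 and 81.6 in MZspg and 608 and 403 in WT (-3.03, adjusted p = 0.00309). The gene rtkn2 had 5.64 and 14.9 in MZspg and 122 and 80.9 in WT (-2.54, adjusted p = 0.00562). The F-box genes fbxl5 and fbxo44.9, whose family supplies substrate receptors of ubiquitin ligases, fell as well, fbxl5 with 72.1 and 55.6 in MZspg and 493 and 333 in WT (-2.52) and fbxo44.9 with 145 and 197 in MZspg and 1106 and 828 in WT (-2.44). Their adjusted p was 0.00761 and 0.0024.

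The cyclin, Cdk and mitosis list had 67 tested genes (median 0.09) and leaves out some cell division genes, such as anln, given below. Its 1 call was the cyclin D1 gene ccnd1, which drives entry into S phase. It had 866 and 829 in MZspg and 2530.4 and 2344 in WT (-1.51, SE 0.196, adjusted p = 0.0024), and its second probe set, with 1156 and 1031 in MZspg and 2429 and 2470.3 in WT, was called too (-1.16). The replicates of ccnd1 were close in both genotypes. Of 46 replication genes 0 were called (median -0.03). The lowest was the DNA polymerase delta subunit gene pold2, with 52 and 64.5 in MZspg and 212 and 155 in WT (-1.51, adjusted p = 0.055).

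Chromatin and splicing factor genes gave 3 calls, a share near the 1.55% of all genes. Of 98 chromatin genes 2 fell (median 0.03). The histone H3K9 methyltransferase gene setdb1b had 90.5 and 151 in MZspg and 416 and 462 in WT (-1.83, adjusted p = 0.0278). The SET-domain gene setd3, whose protein methylates actin, had 59.9 and 129 in MZspg and 401 and 325 in WT (-1.92, adjusted p = 0.0318) and a second called probe set. Of 66 splicing factor genes 1 fell (median 0.04), the U2 snRNP gene sf3b2, with 626 and 858 in MZspg and 1976 and 1808 in WT (-1.36, adjusted p = 0.024). In sf3b2 and setdb1b both mutant arrays lay well under both WT arrays. The zinc-finger gene znf1065 was the 1 call of 39 genes so named, with 216 and 228 in MZspg and 572 and 936 in WT (-1.68, adjusted p = 0.0202).

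Of these signalling and regulatory genes, rgs12b, rtkn2, fbxo44.9 and ccnd1 were lost only without WT replicate 1 (adjusted p = 0.0751, 0.0872, 0.06 and 0.0563). The call of fbxl5 passed only without MZspg replicate 1 (highest 0.126) and that of setd3 only without MZspg replicate 2 (highest 0.282). Those of setdb1b, sf3b2 and znf1065 were lost without any 1 of the 4 (highest 0.291, 0.232 and 0.286).

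The 21 genes that rose were fewer than those that fell. The calreticulin gene calr, for a calcium-binding chaperone of the endoplasmic reticulum, had 117 and 118 in MZspg and empty cells on both WT arrays, at least 4.78-fold higher (adjusted p = 0.00245). With the mitochondrial J-domain gene dnaja3a, which had 93.6 and 179 in MZspg and 32.1 and 20.5 in WT (2.00, adjusted p = 0.0455), it made up the 2 calls among 51 chaperones (median 0.06). The adducin gene add3a, of the membrane skeleton, had 422 and 366 in MZspg and 61.2 and 60.3 in WT (2.53, adjusted p = 0.00262). Its other probe set was not called and had the opposite sign (-0.35).

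Of the genes that rose, txnipa, for a thioredoxin-interacting protein, had 271 and 288 in MZspg and 68.7 and 84.3 in WT (1.76, adjusted p = 0.0183). The Hippo pathway kinase gene stk3 had 379.9 and 275 in MZspg and 90.2 and 88.8 in WT (1.75, adjusted p = 0.0288). The anillin gene anln, of the cytokinetic ring, had 402 and 368 in MZspg and 147 and 121 in WT (1.46, adjusted p = 0.0424), while its second probe set was not called (0.37). In each of these 3 the lower mutant array was more than 2-fold above the higher WT array.

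Some genes of RNA modification and ribosome production also rose. The RNA acetyltransferase gene nat10 had 209.6 and 197 in MZspg and 43 and 76.7 in WT (1.67, adjusted p = 0.0432). The tRNA methyltransferase gene ftsj1 had 75.1 and 105 in MZspg and 11.9 and 21.8 in WT (1.95, adjusted p = 0.0271). The RNA helicase gene ddx52 had 189 and 163 in MZspg and 28.5 and 34.8 in WT (2.19, adjusted p = 0.0129). The purine synthesis gene atic had 352 and 231 in MZspg and 99.7 and 69.1 in WT (1.68, adjusted p = 0.0388). These genes were grouped after their values were seen. The remaining named genes that rose were cyth1a (1.92), for an exchange factor of Arf GTPases, gbgt1l4 (1.83), glipr2l (1.67), spata6l (2.04), zgc:173770 (2.32), map3k14a (3.46) and mid1ip1b, which had 92.5 and 248 in MZspg and 14.2 and 8.55 in WT.

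The kinase gene map3k14a illustrates unequal mutant arrays among them, with 434 and 80.5 in MZspg and 9.99 and an empty cell in WT. Its call passed only without MZspg replicate 2. All calls of genes that rose were lost without WT replicate 2, where the lowest adjusted p was 0.0583 for add3a and 0.0584 for calr. The adjusted p without that array was 0.127 for txnipa, 0.247 for stk3, 0.36 for anln, 0.117 for nat10, 0.138 for ftsj1, 0.121 for ddx52, 0.372 for atic and 0.444 for dnaja3a.

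The large housekeeping families listed here held 0 calls by the brightest probe set of each gene. Of 84 tested genes of oxidative phosphorylation, the respiratory chain and ATP synthase of mitochondria, 0 were called, yet 72 had values above 0 and the median was 0.31. The groups did not overlap with MZspg higher in 33 of them and with MZspg lower in 2, against 21.7% and 16.8% of all tested probe sets. Replicates of a genotype differed by a similar amount. Replicate 1 stood above replicate 2 for 65 of the 84 in MZspg (median difference 0.37) and for 72 in WT (0.34). Over all tested probe sets these shares were 52.8% and 55.4%. The part of this replicate difference in the genotype values was not tested. The ATP synthase subunit gene atp5mc3b, as an example, had 1696 and 1715 in MZspg and 1160.1 and 1046 in WT (0.63, adjusted p = 0.274). Of 41 proteasome genes 0 were called, 34 had values above 0 and the median was 0.28. Here too replicate 1 stood above replicate 2, for 35 of the 41 in MZspg (median difference 0.39) and for 27 in WT (0.16). The regulatory subunit gene psmd11b came nearest, with 141 and 120.5 in MZspg and 44.5 and 41.4 in WT (1.42, adjusted p = 0.0609). Cytosolic ribosomal proteins gave 0 calls of 74 (median 0.09), the mitochondrial ribosome 0 of 55 (0.12), translation factors 0 of 56 (0.13) and ubiquitin-conjugating enzymes 0 of 25 (0.18). A dimmer probe set of the translation initiation factor gene eif1axa was called higher, however. It had 151 and 189 in MZspg and 48.2 and 42.5 in WT (1.71, adjusted p = 0.0354). Its call was lost with any 1 array of this stage left out, and its value then ran from 1.56 to 1.87.

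Of the 124 called probe sets, 34 (27.4%) had no single gene symbol, against 19.0% of all tested probe sets. The largest fall of any named gene was that of si:ch211-152c2.3, with 110.4 and 25 in MZspg and 3166 and 3286 in WT (-5.67, adjusted p = 6.13e-05), among the brighter signals of the WT arrays. The gene si:ch211-125o16.4 had 6.88 and 8.97 in MZspg and 119 and 225 in WT (-3.35, adjusted p = 0.00862), and si:ch211-133n4.4 had 33.2 and 15 in MZspg and 133 and 266 in WT (-2.63, adjusted p = 0.00862). The sperm-associated antigen gene spag7 had an empty cell and 5.59 in MZspg and 373 and 506 in WT (-4.80, adjusted p = 0.00223). In these 4 genes the mutant signals were several-fold or more under the WT signals. The first passed without any 1 array (highest 0.00968), spag7 was lost without WT replicate 2 (0.0791), the second passed only without MZspg replicate 1 (highest 0.186), and the third was lost without MZspg replicate 2 or WT replicate 2 (highest 0.161).

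The arrays of 60% epiboly, which are other embryos, gave the same comparison at 7 hours. Of the 124 probe sets called at 30% epiboly, 120 (96.8%) had the same sign at 60%, against 61.7% of all tested probe sets. At that stage 333 probe sets (4.52%) were called, and 66 were called at both, which is 53.2% of the calls at 30% and 19.8% of those at 60%. The median log2 fold change at 60% was -1.48 over the 94 that had fallen at 30%, and 1.45 over the 30 that had risen. In 74 of the 94 and in 21 of the 30 the change was smaller in size at 60%. The probe sets were chosen by their change at 30%, so these counts and medians are a description. The spread was estimated over all 8 arrays, so the p-values at the 2 stages are not fully separate.

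Some of the steep falls stayed and some did not pass at 60%. The log2 fold change of snai2 was -4.26 at 30% and -4.02 at 60% (adjusted p = 0.000192), that of foxd3 -2.73 and -3.33 (0.00111), that of tagln2 -2.91 and -3.49 (0.00102) and that of pkp3a -2.10 and -3.22 (0.00113). For tagln2 the value at 30% rests on filled cells and is no measured fold. The probe sets of sox11a disagreed at 60%: the brightest stood at -3.47 at 30% and -1.002 at 60% (adjusted p = 0.125), and the other called one at -3.11 and -3.07 (0.0026). The value of prickle1b was -2.35 at 30% and -0.46 at 60% (adjusted p = 0.485) and that of anxa1a -2.83 and -0.23 (0.837). The test of the difference between stages passed for 0 of the 7375 probe sets with limma, while 638 (8.65%) had an unadjusted p under 0.05, 42 of them among the 124.

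The 4 probe sets of opposite sign at 60% were those of apela, sf3b2, nfkbiaa and cacna1ha, the last 2 named after their values were seen. For apela, at 60% epiboly the signals were 214 and 154 in MZspg, against 563 and 545 in WT, so that the genotype order at 30% was turned round (1.66 at 30%, -1.56 at 60%, adjusted p of the difference = 0.101). The splicing gene sf3b2 had 2058 and 2159.5 in MZspg and 1853 and 1126 in WT at 60% (0.54, adjusted p of the difference = 0.237). The NF-kappaB inhibitor gene nfkbiaa had 49.3 and 15.5 in MZspg and 196 and 187 in WT at 30% (-2.41), and 179 and 226 in MZspg and 193 and 174.6 in WT at 60% (0.12, adjusted p of the difference = 0.315). The calcium channel gene cacna1ha had an empty cell and 12.3 in MZspg and 44.5 and 52.1 in WT at 30%. At 60% its only filled cell was WT replicate 1, with 5.54, so its sign there rests on the value set for empty cells (adjusted p of the difference = 0.44). The genes sf3b2 and nfkbiaa were thus lower in MZspg at 30% with similar or higher signals at 60%. For cacna1ha no MZspg signal was measured at 60%. Of the 4, apela alone was called at both stages with opposite signs. At 30% the call of nfkbiaa passed only without MZspg replicate 1 (highest adjusted p = 0.166), and that of cacna1ha was lost without any 1 of the 4 arrays (highest 0.316).

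**Figure D5:**
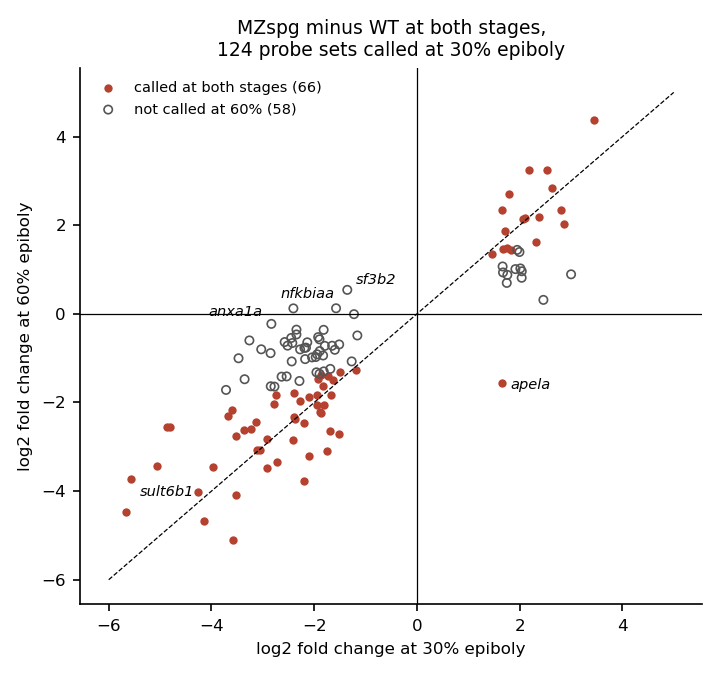
Log2 fold change of MZspg minus WT at 60% epiboly (vertical) against that at 30% epiboly (horizontal) for the 124 probe sets called at 30%; filled points were called at both stages (66) and the dashed line marks equal values. Of the points 120 lie in the quadrants of equal sign, and apela is the 1 filled point in a quadrant of opposite sign.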

How the data were processed

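Total RNA of whole embryos was amplified to cRNA and hybridised to Affymetrix zebrafish arrays, per the labels' protocols. The deposited values are linear signal intensities per probe set, and MAS5 is named in the submitters' processing notes. The filled cells had the same quantiles on every array, and what caused this, and which rule left cells empty, no source used here states. On the 30% epiboly arrays 14.97% to 18.19% of the cells were empty, and 1.09% among tested probe sets.

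Of 12477 probe sets 30 controls were left out, and 7375 were tested, with at least 2 of 8 arrays at 41.03 (the 40th percentile). Of the other 12447, 9206 had 1 gene symbol in the platform annotation, 104 several and 3137 none. Those tested covered 5219 named genes, each represented by its brightest probe set, with other probe sets given where they bear on a call. Where a cell was empty, 8.345 was used, which is the 10th percentile over the table. limma 3.58.1 (R 4.3.3) fitted 1 mean per group to log2(signal + 9) of all 8 arrays (lmFit and eBayes with a trend on intensity, leaving 4 residual degrees of freedom and adding 7.674). P-values were two-sided and Benjamini-Hochberg adjusted across all 7375 probe sets. The procedure was tested on simulated data.

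Named genes were pou5f3, the 25 lower and 25 higher genes with the largest change among called genes whose groups did not overlap, called list members, up to 6 members of each list with the smallest adjusted p, and any member of a list of 12 or fewer tested genes. The comparison, the 52 gene lists and the rule were chosen with earlier results of these data known. Lists are described by counts and medians with no test, and 1 list and its called member are not reported here. Alternatives covered the pseudocount, the filter, empty cells, centring, the arrays fitted, the replicate block and each array left out. The labels do not say whether replicates came from separate crosses, so p-values measure the spread between these samples. The number of arrays limits the precision.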

Additional observations from a re-analysis of the deposited data

How the results depend on the processing

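The count of 124 called probe sets was 115 and 127 with a pseudocount of 1 and 32, 93 with a stricter filter on dim probe sets, 127 with the filter set on the 30% arrays, 94 with empty cells left missing, 97 over probe sets with 4 filled cells, 145 with each array centred and 120 without an intensity trend. It was 31 (25 lower, 6 higher) with no filter, 67 (55 lower, 12 higher) when only the 4 arrays of 30% epiboly were fitted and 76 (64 lower, 12 higher) without both second replicates of 60% epiboly. With 1 of the 8 arrays left out it ran from 22 to 120: 22 without WT replicate 2 (20 lower, 2 higher), 29 without WT replicate 1, 44 without MZspg replicate 2 and 99 without MZspg replicate 1 (85 lower, 14 higher) of 30% epiboly. The share of lower calls was 75.8% and became 85.9% without MZspg replicate 1 and 90.9% without WT replicate 2. Centring moved the median log2 fold change of all tested probe sets from 0.05 to 0.02. The log2 fold change of pou5f3, -1.19, was not called with no filter (adjusted p = 0.105) or without an intensity trend (0.129), nor in the fits without 1 array of 30% epiboly, where it ran from -1.27 to -1.12 (adjusted p from 0.0976 to 0.282). Of 59 other called genes named here, 14 passed with no filter, 31 with only the 4 arrays of the stage and 33 without the second replicates of 60% epiboly, 0 reversed under any alternative, and 50 to 59 of those tested passed under the others that keep every array, apart from the stricter filter, under which 48 of the 48 tested passed. Some genes that were not called changed sign with 1 array left out, with values from -0.94 to 1.02 for tbxta, -1.12 to 1.00 for her7, -0.081 to 1.17 for sox32, -0.0063 to 1.02 for gsc, -0.27 to 0.75 for klf2a, -0.36 to 0.47 for krt18a.1, -0.11 to 0.76 for snai1a, -0.45 to 0.14 for ddx4 and -0.47 to 0.0043 for nanos3. The value of her7 was 0.011 with a pseudocount of 1 and 0.75 with empty cells left missing. Same-numbered arrays of 30% epiboly deviated weakly in opposite directions (r = -0.143 across probe sets, against 0.08 at 60%). The labels do not say whether same-numbered samples were paired, and this correlation cannot decide it. With the replicate block 112 probe sets were called, 104 of them among the 124, and pou5f3 had an adjusted p = 0.0123. With the pairing crossed, an alternative chosen after seeing the data, 155 were called (117 lower, 38 higher). The causes of these changes were not tested. Motif matches in promoters, planned as a description, were not run because no promoter sequences were used here. With 2 arrays in a group the number of arrays limits the precision, and 56 of the 94 probe sets called lower had MZspg means under the level of the filter, where signals have little order.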

Other observations

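Further gene families held genes near the threshold or on single arrays. The orphan nuclear receptor gene nr0b2a had 145 and 11.4 in MZspg and 163 and 510.2 in WT (log2 fold change -2.42, adjusted p = 0.199), with MZspg replicate 1 close to WT replicate 1, and of 10 tested nuclear receptor genes 0 were called (median -0.06). The Cdc42 effector gene cdc42se1 came close to a call, with 9.65 and 5.98 in MZspg and 43.3 and 75.7 in WT (-1.99, adjusted p = 0.0501). The mitochondrial carrier gene slc25a55a had 286 and 100 in MZspg and 1018 and 501 in WT (-2.01, adjusted p = 0.058). The ribosomal protein gene rpl22l1 had 109.9 and 61.6 in MZspg and 237 and 259.7 in WT (-1.49, adjusted p = 0.0579), lower on both mutant arrays in a family of which 54 of 74 members had values above 0.

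Of the 23 tested neural plate genes, of which sox11a and foxb1a fell, 12 had values below 0, and the 3 with the highest values were not called. The homeobox gene otx2b, of fore- and midbrain, had 80.7 and 18.2 in MZspg and an empty cell and 5.03 in WT (1.66, adjusted p = 0.163). The repressor gene her9 had 66.6 and 29.6 in MZspg and 11.9 and an empty cell in WT (1.504, adjusted p = 0.19), and the homeobox gene pbx4 416 and 551 in MZspg and 233 and 135 in WT (1.38, adjusted p = 0.177). Groups did not overlap in 7 of the 23 with MZspg higher and in 4 with MZspg lower. Over all tested probe sets the shares were 21.7% and 16.8%, and the counts are a description with no test. In each of the 3 named here both mutant arrays exceeded both WT arrays, with empty cells filled. At 60% epiboly, on other embryos, all 3 were called higher in MZspg (2.83, 2.48 and 1.73, adjusted p = 0.00913, 0.0126 and 0.0379). The difference between the stages was tested for these genes in the fit of all probe sets and did not pass (adjusted p = 0.713, 0.76 and 0.909). Of 9 tested Hairy and Hey-type genes 0 were called at 30% (median 0.13), of 11 Ets genes 0 (0.04), and of 15 Hox and ParaHox genes on the array 1, cdx4, passed the filter, with 16.8 and an empty cell in MZspg and 18.1 and 92.9 in WT (-1.31, adjusted p = 0.527).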
